A study of Mus musculus with 34 samples.

Results

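Notch receptors and ligands, the DNA-binding effector Rbpj and 4 Hes and Hey target genes were described in mouse cumulus cells (CCs), the granulosa cells that surround the oocyte in the follicle. The 10 genes, Notch1, Notch2, Notch3, Jag1, Dll1, Rbpj, Hes1, Hey1, Hey2 and Heyl, were found by symbol among the 25965 entries of the count table, and all 10 had an entry. They were chosen because Hey1 went from no reads to reads with leptin, so the members' values in the leptin comparison are given below as a description, with no p. The table held 34 libraries from superovulated C57BL/6J females that were 8 weeks old when treatment began. In the pharmacological model, 5 libraries came from mice injected intraperitoneally with leptin for 16 days, at 100 μg per day (16 L), and 3 from mice injected with saline (16 C). In the diet-induced obesity (DIO) model, mice were fed chow (CD) or a high-fat diet (HFD). At 4 weeks there were 5 libraries per diet, and at 16 weeks 6 of CD and 7 of HFD. The low gainers (3 libraries) were mice whose weight rose little in 16 weeks of HFD. Leptin and diet reached the whole animal, and each library came from a small pool of CCs of 1 cumulus-oocyte complex. The labels do not name litters or batches, so p-values measure the spread between these libraries.

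Notch signalling passes between neighbouring cells. A Jagged or Delta ligand on one cell binds a Notch receptor on the next, the receptor is cut by an ADAM protease and then by γ-secretase, and its intracellular domain enters the nucleus. There it joins RBPJ and turns on Hes and Hey genes, which encode transcriptional repressors. In the ovary the pathway is known for its part in granulosa cell proliferation, with NOTCH2 and JAG1 as a main receptor and ligand of the follicle.

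RefSeq start sites on GRCm38.p6 were at hand for 7 of the 10 members and gave 9 windows of the 250 bases before a start. Searched on both strands were TGGGAA, the core of the site that RBPJ binds, and CACGTG and CACGCG, sites of the Hes and Hey family. TGGGAA or its reverse complement TTCCCA occurred in 21.6% of all 32851 such windows, CACGTG in 6.02% and CACGCG in 7.62%. Of the members' windows, those of Rbpj (2 overlapping windows) and Hey2 held TGGGAA, and those of Notch2, Jag1 and 1 of 2 of Dll1 held CACGCG. No window of Notch1 or Notch3 held any of the 3 motifs. The Notch1 window (chr2:26503823-26504072) lay inside the counted gene, which begins at 26516663 on the minus strand. The bases before that outer start were thus not searched. The 2 windows of Rbpj, whose counted gene begins at 53555779, and the Dll1 window without a match also lay inside their genes. A match is only a run of letters, not a binding site. Shown here are the receptor and ligand most abundant among the members, the effector whose core site was searched and the Hey gene with a match. For each, the part of the window outside GENCODE M21 exons is given, 5′ to 3′ on the gene's strand with matches in capitals.
Notch2 (chr3:98013288-98013526, plus strand): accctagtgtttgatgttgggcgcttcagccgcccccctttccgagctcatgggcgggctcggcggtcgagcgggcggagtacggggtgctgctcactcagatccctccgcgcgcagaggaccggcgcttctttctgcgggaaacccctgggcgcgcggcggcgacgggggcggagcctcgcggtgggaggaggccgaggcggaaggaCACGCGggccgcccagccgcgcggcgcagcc
Jag1 (chr2:137116645-137116770, minus strand): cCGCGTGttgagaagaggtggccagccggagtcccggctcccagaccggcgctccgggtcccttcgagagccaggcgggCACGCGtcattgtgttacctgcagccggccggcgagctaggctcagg
Rbpj (chr5:53590096-53590213, plus strand): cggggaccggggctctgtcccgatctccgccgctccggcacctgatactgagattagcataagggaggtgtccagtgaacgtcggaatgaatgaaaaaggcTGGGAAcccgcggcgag
Hey2 (chr10:30842802-30843033, minus strand): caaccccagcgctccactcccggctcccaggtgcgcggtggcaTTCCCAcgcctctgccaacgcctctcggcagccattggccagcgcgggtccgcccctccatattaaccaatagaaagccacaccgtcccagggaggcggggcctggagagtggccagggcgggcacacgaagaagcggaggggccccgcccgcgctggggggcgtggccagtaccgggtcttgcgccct
The CACGCG of Notch2 began at position -42 from the start, and those of Jag1 at -171 and, on the opposite strand, at -249. The TGGGAA shown for Rbpj began at -149, and that of Hey2, on the opposite strand, at -207.

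Total counts ranged from 1104611 to 13207018 per library, and levels are given below as reads per 1000000 counted reads (RPM). Replicate 18 of 16 L stood apart. Its 8 oviduct epithelium markers summed to 31670 RPM, against 128.2 to 161.5 in 16 C, and its 4 cumulus expansion markers (Has2, Ptgs2, Ptx3, Tnfaip6) to 1.94 RPM, against 262.5 to 845.8 in the other 16 L libraries and 882.5 to 1404 in 16 C. Every 16 L library thus lay below every 16 C library in this sum. The 10 granulosa and cumulus markers summed to 2231 to 4844 RPM in 4 of 5 16 L libraries and 10970 in replicate 19, against 10420 to 24970 in 16 C. Single markers were less uniform than the sums. Of these 10, 0 had every 16 L library below every 16 C library and 1 had every one above. Of the 4 expansion markers, 1 had every 16 L library below and 0 above. In the fit 8 granulosa and 4 expansion markers passed the filter, and 0 were called. The part of these differences in the leptin results was not tested. Log2 fold changes of the members fitted in 16 L are therefore given with and without replicate 18. In bulk samples, fewer cells of a type and less RNA per cell cannot be told apart.

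Levels between genes were compared per kilobase of exon, as the mean RPM per kb over the 34 libraries. The receptor Notch2 led at 78.0, ahead of the ligand Jag1 at 13.4 and the target Hes1 at 11.3. Heyl followed at 4.59, Hey2 at 2.28 and Rbpj at 2.21. Hey1 lay at 0.721, with 353 reads in 22 of 34 libraries. Notch1 (0.254), Notch3 (0.124) and Dll1 (0.00905) were lowest per kb, Notch1 with 498 reads in 31 libraries, while Dll1 rested on 4 reads in all, 1 in each of 4 libraries. Notch1, Notch3 and Dll1, like Rbpj, overlap annotated genes on the opposite strand, and the strand setting of the counting is not given in the sources used here, so some of their reads may belong to those genes. Notch2 overlaps the same-strand genes Gm42819 and Gm42820. Among the members, the receptor that CCs expressed most was thus Notch2 and the ligand Jag1. Other receptors and ligands of the pathway were not ranked.

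**Figure D1:**
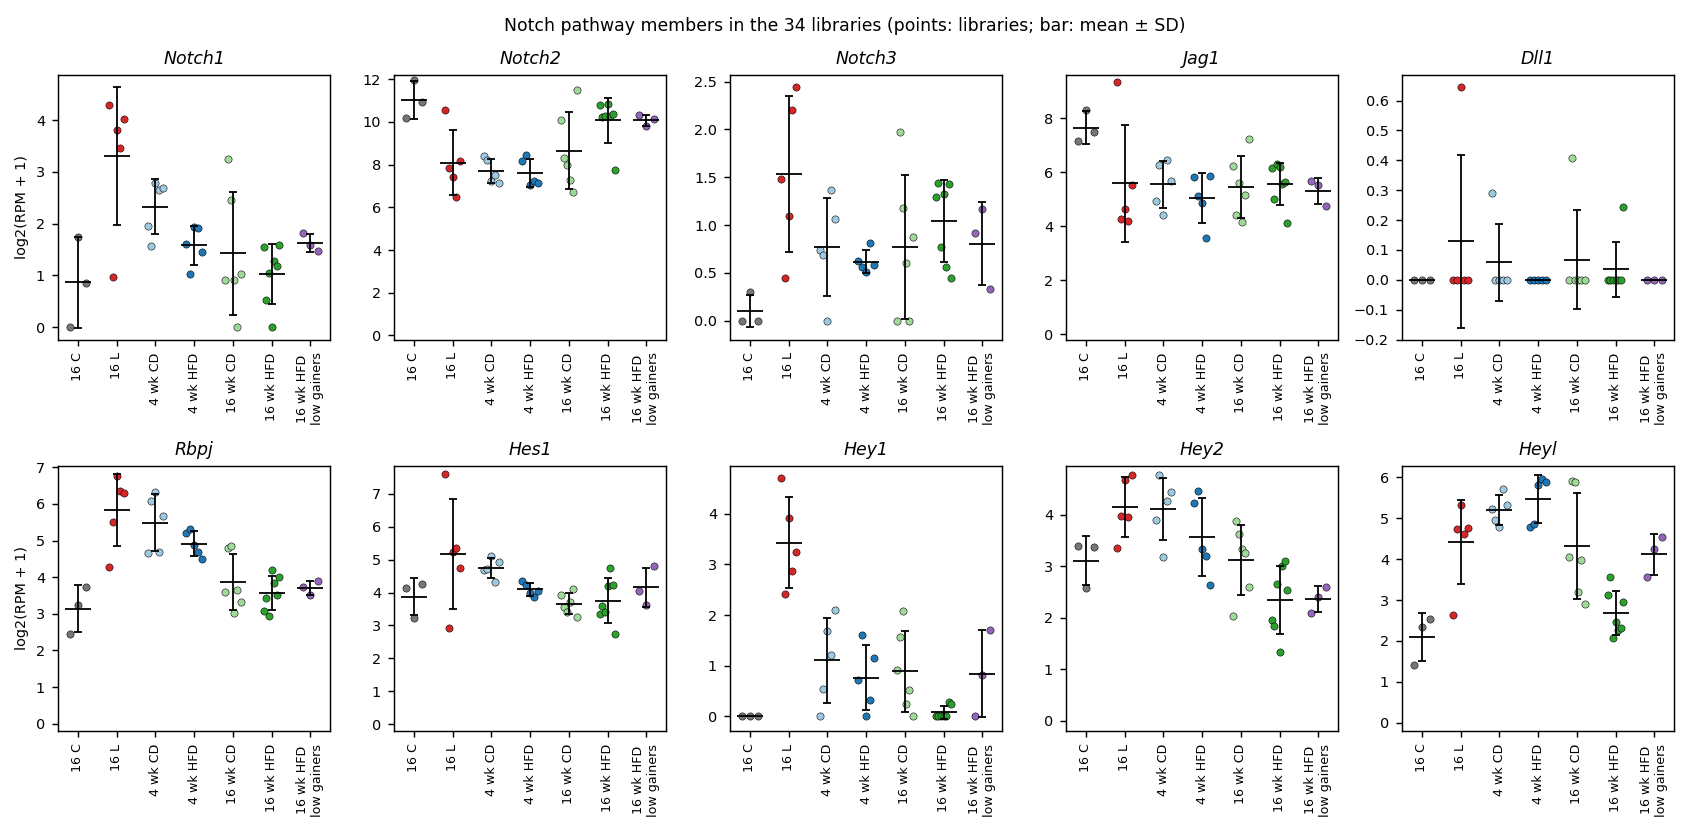
Level of each member as log2(RPM + 1) (y axis, its own scale per gene) in the 34 libraries, grouped on the x axis by treatment (C, saline; L, leptin; CD, chow; HFD, high-fat diet). Points are libraries and bars the mean ± SD; Hey1 is at 0 in the 3 16 C libraries and between 4.34 and 25.2 RPM in 16 L, and Notch2 spans 87.8 to 3956 RPM.

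Hey1, a basic helix-loop-helix repressor and a direct target of Notch in many tissues, lies on chr3:8663362-8667039 (GRCm38, minus strand) and overlaps no other annotated gene. It had 0 reads in each 16 C library, of 1789237 to 13207018 counts. In 16 L replicates 18, 19, 20, 21 and 23 it had 25.2, 4.34, 14.1, 6.34 and 8.48 RPM. All 5 leptin libraries thus lay above all 3 saline libraries, which is what Hey1 was chosen for. The mean of 11.7 ± 8.39 RPM (SD, n = 5) was at least 13-fold higher than the limit that 3 reads per 16 C library set. Without replicate 18 it was at least 9.25-fold higher, and without 16 C replicate 1 or 2, whose depths set the limit, at least 22.9-fold and 9.46-fold. The fitted log2 fold change of 8.61 depends on the prior count and is no bound. It was 7.70 without replicate 18, 7.52 with DESeq2 and 5.05 with limma-voom.

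Hey1 had fewer reads in the diet libraries, where no library exceeded 3.28 RPM. The mean was 1.45 ± 1.32 RPM (SD, n = 5) with 4 weeks of CD and 0.838 ± 0.824 (n = 5) with 4 weeks of HFD. At 16 weeks it was 1.12 ± 1.26 (n = 6) with CD, 0.0563 ± 0.0966 (n = 7) with HFD and 1.01 ± 1.16 (n = 3) in the low gainers. In this order of 7 groups, 16 L stood first and 16 C last, and only 16 L and its neighbour 4-week CD had ranges that did not overlap. The 7 libraries of 16-week HFD held 2 Hey1 reads in all, and the 6 of 16-week CD held 28. Averaged as log2(RPM + 1), HFD minus CD came to -0.81 (exact permutation, two-sided, p = 0.0134, adjusted p = 0.188 over the 14 tests of members that failed the count filter), so it did not pass the correction. Hey1 was read in 2 of 7 libraries of the one group and 5 of 6 of the other, and the ranges overlapped. The low gainers held 12 reads in 2 of 3 libraries, and their difference from 16-week HFD was 0.77 (exact permutation p = 0.0667, adjusted p = 0.467, smallest possible p = 0.00833).

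The leptin libraries also differed in markers of other cell types. Oviduct epithelium markers summed to 159.4 RPM in 16 L replicate 19, within the 16 C range, and to 1869, 2480 and 891.7 in replicates 20, 21 and 23. Most of this sum in 16 C and replicate 19 is Krt8 and Krt18. Of the 7 oviduct markers that passed the filter 1 was called, Ltf, at 3.14 to 183.3 RPM in 16 L and at most 0.53 in 16 C. Pericyte and smooth muscle markers, a list of 8 that includes Notch3, summed to 7.48 RPM in replicate 19, 21.7 to 33.5 in replicates 20, 21 and 23, 340.9 in replicate 18 and 0.559 to 5.00 in 16 C. Leukocyte markers were at 1338 and 1531 RPM in replicates 20 and 23, against 71.9 to 450.5 in 16 C, and red cell markers at 9654 and 2474 in replicates 18 and 21. Endothelial markers, at 10.3 to 36.6 RPM in 16 L and 17.3 to 28.4 in 16 C, overlapped. So did theca and stroma markers, at 1452 to 4338 RPM in 16 L and 1254 to 1535 in 16 C. Of the 3 theca and stroma markers that passed the filter 1 was called, Star, which was lower in 16 L. Across the 34 libraries Pearson's r between Hey1 and the oviduct sum, both on the log2 scale, was 0.770, and across the 26 diet libraries 0.249. With pericyte and smooth muscle markers it was 0.645 and 0.419, with red cell 0.547 and -0.095 and with leukocyte 0.251 and -0.401. It was -0.468 and -0.399 with granulosa and -0.573 and -0.031 with expansion markers. For endothelial, theca and oocyte lists it lay between -0.032 and 0.327 and between 0.300 and 0.318. The part of these cells in the Hey1 reads was not tested.

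**Figure D2:**
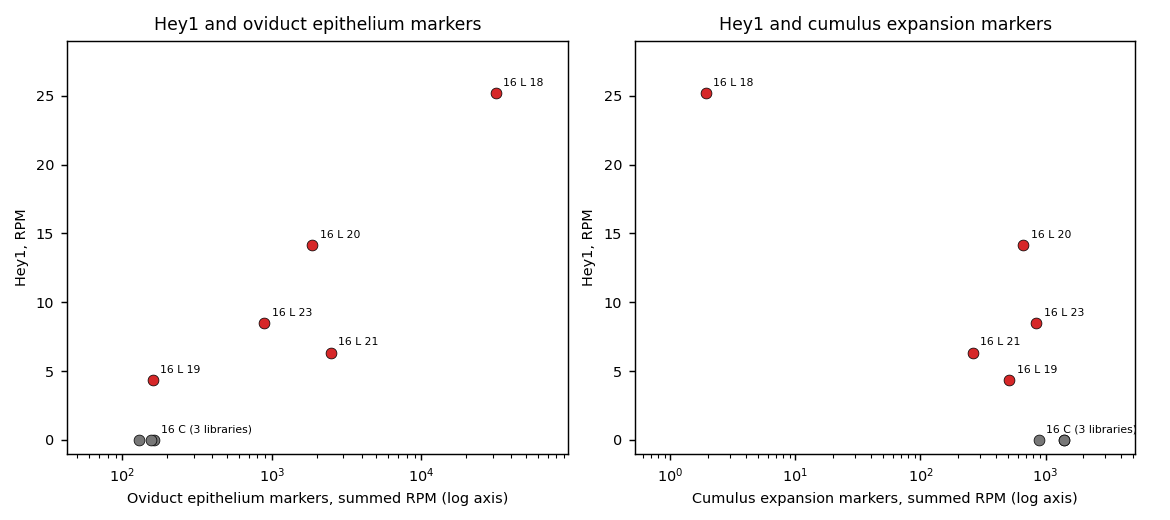
Hey1 (y axis, RPM) against the summed RPM of 8 oviduct epithelium markers (left) and 4 cumulus expansion markers (right) on log x axes, with 1 point per library of 16 L (red) and 16 C (grey). Replicate 18 has the highest Hey1 (25.2 RPM) and oviduct sum and the lowest expansion sum (1.94 RPM), and replicate 19 has 4.34 RPM of Hey1 with an oviduct sum of 159.4 RPM.

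Genes whose pattern was most like that of Hey1 were ranked by Pearson's r on log2(RPM + 1) among 13203 genes. Over all 34 libraries these were Slc9a3r1 (0.884), Nbl1 (0.861), Noxo1 (0.850), Rassf5 (0.841) and Rogdi (0.828). Over the 26 diet libraries the list was another, Ss18 (0.795), Dync1li2 (0.790), Ccnl2 (0.787), Ldlrad3 (0.784) and Snx32 (0.782), none of which was among the first 5 over all libraries. The points share library depth and makeup, so these values are a description.

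The other members in the leptin comparison are given as values. Of 10 members, 8 passed the filter on low counts and Notch3 and Dll1 did not. In the edgeR fit 2 were called higher, Hey1 and Rbpj, in a comparison that called 8.56% of all 11723 genes tested; as the choice of members used this contrast, nothing is read from that count. The median log2 fold change was 1.70 over the 8, and for the same reason nothing is read from it. Over all genes it was 0.27.

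Among receptors and ligands, Notch2 had 1168, 3956 and 1964 RPM in 16 C and 228.7, 168.6, 87.8 and 285.9 in 16 L replicates 19, 20, 21 and 23. Replicate 18, at 1525 RPM, lay within the saline range, and it alone kept the groups from separating. The log2 fold change was -2.90 (SE 1.04), and -4.68 without replicate 18. Jag1 likewise had 139.7, 315.7 and 180.1 RPM in 16 C, 635.8 in replicate 18 and 17.2 to 45.5 in the other 16 L libraries. Its log2 fold change went from -0.93 to -4.08 when replicate 18 was left out. Notch1 had 0, 2.35 and 0.796 RPM in 16 C, 0.965 in replicate 19 and 9.96 to 18.5 in the other 16 L libraries. Its log2 fold change was 2.41 (SE 1.09), and 1.74 without replicate 18. Notch3 was read in 1 of 3 saline and all 5 leptin libraries, with 3 and 31 reads.

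Rbpj, which encodes the factor that brings the Notch intracellular domain to DNA, had 4.47, 8.41 and 12.2 RPM in 16 C and 18.5, 44.8, 106.9, 81.5 and 77.2 in 16 L replicates 18, 19, 20, 21 and 23. The groups did not overlap, and the log2 fold change was 2.05 (SE 0.54), and 2.145 without replicate 18. The annotation also lists the processed pseudogenes Rbpj-ps1 and Rbpj-ps3, and 2 antisense genes overlap Rbpj, so its reads are uncertain to that extent.

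Among the other targets, Hes1 had 16.8, 8.41 and 18.04 RPM in 16 C, 193.1 in replicate 18, and 6.51, 36.8, 39.8 and 25.9 in replicates 19, 20, 21 and 23. In RPM, 4 of 5 leptin libraries lay above every saline library. The fitted log2 fold change, which also scales by TMM, was 1.61 with replicate 18 and -0.07 without it, so RPM and fit differ for Hes1. Heyl had 1.68, 4.09 and 4.77 RPM in 16 C, 5.22 in replicate 18 and 23.5 to 39.0 in the other 16 L libraries. Its log2 fold change was 1.80 (SE 0.60), and 1.91 without replicate 18. Hey2 had 4.92 to 9.50 RPM in 16 C and 9.25 to 26.3 in 16 L, with overlap. Its log2 fold change was 0.36, and 0.39 without replicate 18. Scaling by total counts, which moved the median of all genes from 0.27 to 1.08, gave 1.19 for Hey2, 2.71 for Heyl and 2.95 for Rbpj.

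**Figure D3:**
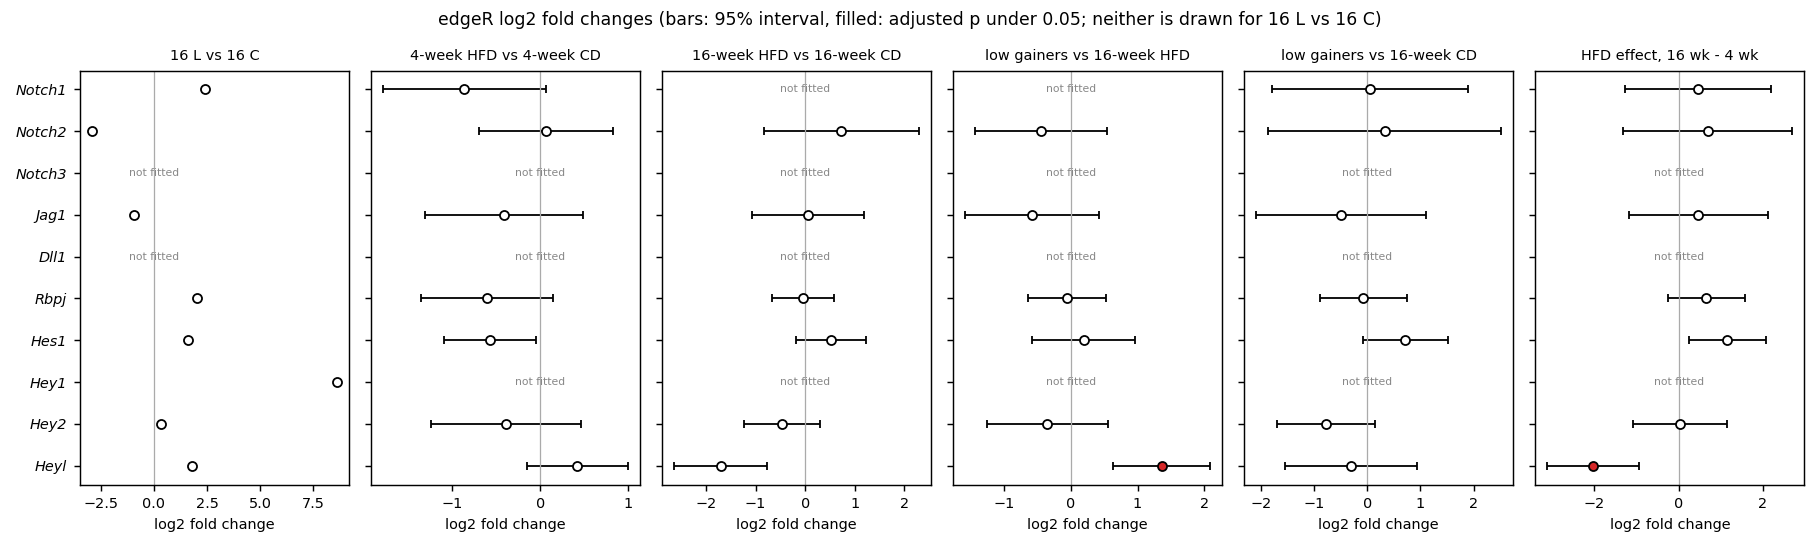
Fitted log2 fold change (x axis) of each member (y axis) in 6 comparisons, the last being the HFD effect at 16 weeks minus that at 4 weeks. Bars are 95% intervals and filled points have an adjusted p under 0.05 (Heyl in the low gainers and in the last panel); neither is drawn for 16 L, and "not fitted" marks genes that failed the filter.

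After 4 weeks of diet no member was called, in a comparison that called 4.26% of 11727 genes. Passing the filter were 7 members, all but Hey1, Notch3 and Dll1, and 1 of them, Hes1, had an unadjusted p under 0.05, as did 24.3% of all genes. DESeq2 also called 0 members, and limma-voom called 1, Hey2 (log2 fold change -1.02, adjusted p = 0.0151), where it called 34.6% of all genes. Hes1 had 18.9, 25.3 and 33.8 RPM as the lowest, median and highest value with CD, and 13.4, 15.5 and 19.6 with HFD. The groups overlapped only by the lowest CD and highest HFD library, and the log2 fold change of -0.57 (SE 0.25, 95% interval -1.10 to -0.05) did not pass adjustment (edgeR adjusted p = 0.167). Notch1 had 1.97 to 5.87 RPM in CD and 1.03 to 2.81 in HFD, with a log2 fold change of -0.86 (95% interval -1.79 to 0.06). Heyl had 36.7 ± 9.62 RPM in CD (SD, n = 5) and 45.8 ± 17.1 in HFD (n = 5), a log2 fold change of 0.42 (95% interval -0.15 to 0.99). Notch2 had 220.2 ± 88.9 RPM in CD and 212.4 ± 100.9 in HFD, and the interval of its log2 fold change ran from -0.70 to 0.82.

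After 16 weeks of diet Heyl had the lowest unadjusted p of the members. Heyl encodes a Hey-family repressor known from vascular and muscle cells. It had 15.5, 59.4, 57.7, 8.20, 14.9 and 6.51 RPM in 16-week CD replicates 13, 1, 2, 5, 8 and 9. In 16-week HFD it ranged from 3.18 to 10.7 RPM, with a median of 4.51 over 7 libraries. The 2 highest chow libraries, replicates 1 and 2, stood well above the rest, and the 2 lowest overlapped with HFD. The log2 fold change was -1.71 (SE 0.44, 95% interval -2.64 to -0.77), with an unadjusted edgeR p of 0.00127 and an adjusted p of 0.0654. It crossed the threshold with DESeq2 (adjusted p = 0.0121), with all 34 libraries in one fit (0.00852), with scaling by total counts (0.0311) and without 16-week CD replicate 9 (0.0152) or 13 (0.0471), and was farthest from it without replicate 1 (0.207) or 2 (0.206).

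In this comparison edgeR called 0 of the 6 members that passed the filter, and 0.0276% of all 10861 genes (3 genes, with 2748 at an unadjusted p under 0.05). The number for all genes rested on single chow libraries, rising to 2222 without replicate 9 and to 473 without replicate 13. Notch2 marks the same libraries: replicates 9 and 13 of 16-week CD had 2935 and 1103 RPM, and replicates 1, 2, 5 and 8 had 319.4, 252.4, 156.4 and 105.4. In 16-week HFD, 6 of 7 libraries had 1211 to 1848 RPM, and replicate 6 had 214.5. The log2 fold change of Notch2 was 0.73 (95% interval -0.83 to 2.29) with all libraries, and 2.07 (adjusted p = 0.0275) without replicate 9. None of Jag1 (0.05, 95% interval -1.08 to 1.18), Rbpj (-0.05, -0.68 to 0.58), Hes1 (0.52, -0.19 to 1.22) and Hey2 (-0.47, -1.24 to 0.30) passed the test.

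In the low gainers Heyl was higher than in the other mice on 16 weeks of HFD. It had 10.8, 17.98 and 22.3 RPM in low gainer replicates 21, 22 and 23, all above the highest 16-week HFD library at 10.7, although the lowest of the 3 exceeded it only narrowly. The log2 fold change was 1.36 (SE 0.34, 95% interval 0.64 to 2.09, edgeR adjusted p = 0.0119). The call was lost without low gainer replicate 22 (adjusted p = 0.0506) or 23 (0.0856) and with all 34 libraries in one fit (0.0777), and other alternatives that tested it gave 0.00511 to 0.0227. Heyl was the 1 member called among the 6 that passed, in a comparison that called 20.7% of all 11258 genes, a share to which 1 of 6 is close. Against 16-week CD, the log2 fold change of Heyl was -0.30 (95% interval -1.55 to 0.94, adjusted p = 0.883), and no member of 7 was called, none with an unadjusted p under 0.05, where 0.00861% of 11620 genes were called (1 gene). DESeq2 and limma-voom called 0 members there as well. Both low gainer comparisons use the same 3 libraries, and 16-week HFD is shared with the diet comparison.

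The HFD effect on Heyl differed between times, with a log2 fold change at 16 weeks minus that at 4 weeks of -2.02 (SE 0.53, edgeR adjusted p = 0.0356). Of 7 members that passed, it was the 1 called, against 3.66% of 12235 genes. The call was kept in 11 of 23 fits that left out 1 library, in which the difference ranged from -2.28 to -1.75 and the adjusted p from 0.00903 to 0.0766. It was also lost with all 34 libraries in one fit (adjusted p = 0.0520). Hes1 had the next largest difference, 1.15 (95% interval 0.24 to 2.07, adjusted p = 0.119).

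Marker lists beside the Heyl values were as follows. Pericyte and smooth muscle markers summed to 6.63 to 32.6 RPM in 16-week CD, 1.68 to 14.9 in 16-week HFD and 7.60 to 10.8 in the low gainers, and the 1 of 8 that passed the filter in these comparisons was not called. Of the 8, Rgs5 and Myh11 had no read in 16-week HFD or in the low gainers, while Cspg4 and Notch3 were read in every library of both groups and Pdgfrb, Acta2, Tagln and Des in some of each. Theca and stroma markers summed to 1159 to 2535 RPM in 16-week HFD and 4136 to 4938 in the low gainers, without overlap. Of these 8 markers 3 passed the filter and 1 was called, Cyp11a1, which CCs also express, at 911.6 to 1975 RPM in 16-week HFD and 3762 to 4479 in the low gainers. Cyp17a1 had no read in any of these 3 groups, Star and Pdgfra were read in every 16-week HFD and low gainer library, and Dcn, Lum, Col1a1 and Col1a2 in some of each. Among the other lists, the low gainers had calls against 16-week HFD for S100a8 (leukocyte, 1.499 to 59.5 RPM against at most 4.34), Amhr2 (granulosa, 18.7 to 23.04 against 3.13 to 14.9), Inhba (granulosa, 103.7 to 175.7 against 115.5 to 358.9) and Ptgs2 (expansion, 28.5 to 42.0 against 36.4 to 88.7). The part of these markers in the Heyl result was not tested.

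Notch2 separated the 34 libraries into high and low ones across treatments. All 3 16 C, all 3 low gainers, 6 of 7 16-week HFD, 2 of 6 16-week CD and 1 of 5 16 L libraries had 887.0 RPM or more. The rest, including all 10 of the 4-week groups, had 354.6 or less. Both kinds occurred within 16 L, 16-week CD and 16-week HFD. Neighbouring groups in the order of Notch2 means all overlapped in range.

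Correlations with Notch2 are therefore given over all libraries and also within the 15 high and the 19 low ones. They are on log2(RPM + 1) and a description, since the libraries of a set share depth and treatment. Over all 34 libraries Pearson's r was 0.666 with Jag1, -0.740 with Heyl, -0.656 with Rbpj and -0.588 with Hey2. Over the 26 diet libraries it was 0.516, -0.690, -0.590 and -0.622, in the same order. Pearson's r with Jag1 was 0.596 in the high and 0.245 in the low libraries. With Heyl it was -0.360 and 0.0942, with Rbpj -0.0407 and 0.0729 and with Hey2 -0.000288 and 0.412. The range of Notch2 is narrower within a set than over all libraries, which by itself lowers r.

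**Figure D4:**
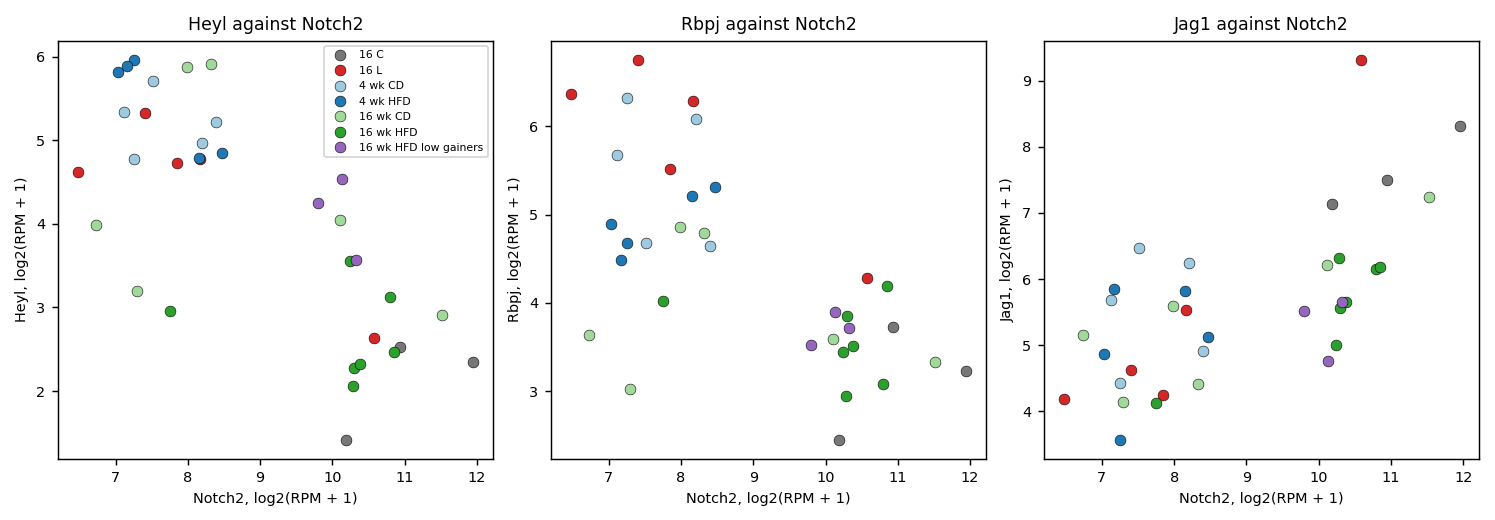
Heyl, Rbpj and Jag1 (y axes) against Notch2 (x axis), all as log2(RPM + 1), with 1 point per library coloured by group. The libraries form a low set (87.8 to 354.6 RPM of Notch2) and a high set (887.0 to 3956 RPM), and within a set r with Notch2 lies between -0.360 and 0.0942 for Heyl and Rbpj. Over all 34 libraries r is -0.740 for Heyl and -0.656 for Rbpj.

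Granulosa and cumulus markers also went with Notch2, with an r between Notch2 and their summed RPM of 0.665 in the high and 0.492 in the low libraries. For cumulus expansion markers r was 0.151 and 0.632, and for theca and stroma markers -0.551 and -0.480. Over all 34 libraries r was 0.826 for granulosa and cumulus, 0.093 for expansion and -0.664 for theca and stroma markers. Among the other lists r lay between -0.109 and 0.0623 in the high and between -0.400 and 0.102 in the low libraries. The part of these markers in the Notch2 pattern was not tested.

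The rest of the pathway was followed in 63 further genes, all in the table. They comprise receptor and ligands, glycosyltransferases, proteases, endocytic adaptors and ubiquitin ligases, nuclear coactivators and corepressors, and other targets. With leptin 47 passed the filter, of which 4 were higher and 3 lower, or 14.9%, beside 8.56% of all genes. Adam10, a protease that cuts the receptor once a ligand has bound, had 2663 ± 526.4 RPM in 16 C (SD, n = 3) and 639.1 ± 97.8 in 16 L (n = 5), a log2 fold change of -2.85 (SE 0.45, edgeR adjusted p = 0.0131). Mib1, a ubiquitin ligase that ligands need in the sending cell, went from 463.9 ± 179.6 to 150.9 ± 22.2 RPM (-2.43, SE 0.39, adjusted p = 0.0138). The corepressor Ctbp1 (1.75, SE 0.32, edgeR adjusted p = 0.0194) and the ligase Dtx2 (2.33, SE 0.61, adjusted p = 0.0466) were higher. The number of calls was 25 without 16 L replicate 18, where 41.8% of all genes were called, 9 without 19 (14.4% of all genes) and 2 without 21 (1.28%). It was 0 without 16 L replicate 20 or 23 or any 1 of the 16 C libraries, where 0.235% to 0.856% of all genes were called. With scaling by total counts 18 were higher and 2 lower, and 34.4% of all genes were called.

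After 4 weeks of HFD 48 of these genes passed and 3 fell, 6.25% beside 4.26% of all genes. The 3 are a coactivator and 2 corepressors, roles that 22 of the 48 genes hold. Crebbp, a histone acetyltransferase, had 86.3 ± 23.4 RPM in CD (SD, n = 5) and 38.3 ± 11.4 in HFD (n = 5), a log2 fold change of -1.04 (SE 0.26, edgeR adjusted p = 0.0386). The corepressor Spen went from 41.6 ± 16.6 to 17.8 ± 5.16 RPM (-1.11, SE 0.30, adjusted p = 0.0494), and Tle3 from 41.8 ± 11.9 to 17.3 ± 2.82 (-1.14, SE 0.23, adjusted p = 0.0215). Calls fell to 0 without 4-week CD replicate 7 or 8 or 4-week HFD replicate 3, 4 or 5, where 0.0674% to 0.908% of all genes were called. In HFD replicate 5 the 8 oocyte markers summed to 281.7 RPM, with 7 of them read. Other 4-week libraries had at most 4.402 RPM. The part of this in the calls was not tested. Leaving out CD replicate 2 or HFD replicate 14 left 1, beside 0.829% and 1.33% of all genes. Leaving out CD replicate 11 gave 8, beside 14.4% of all genes.

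**Figure D5:**
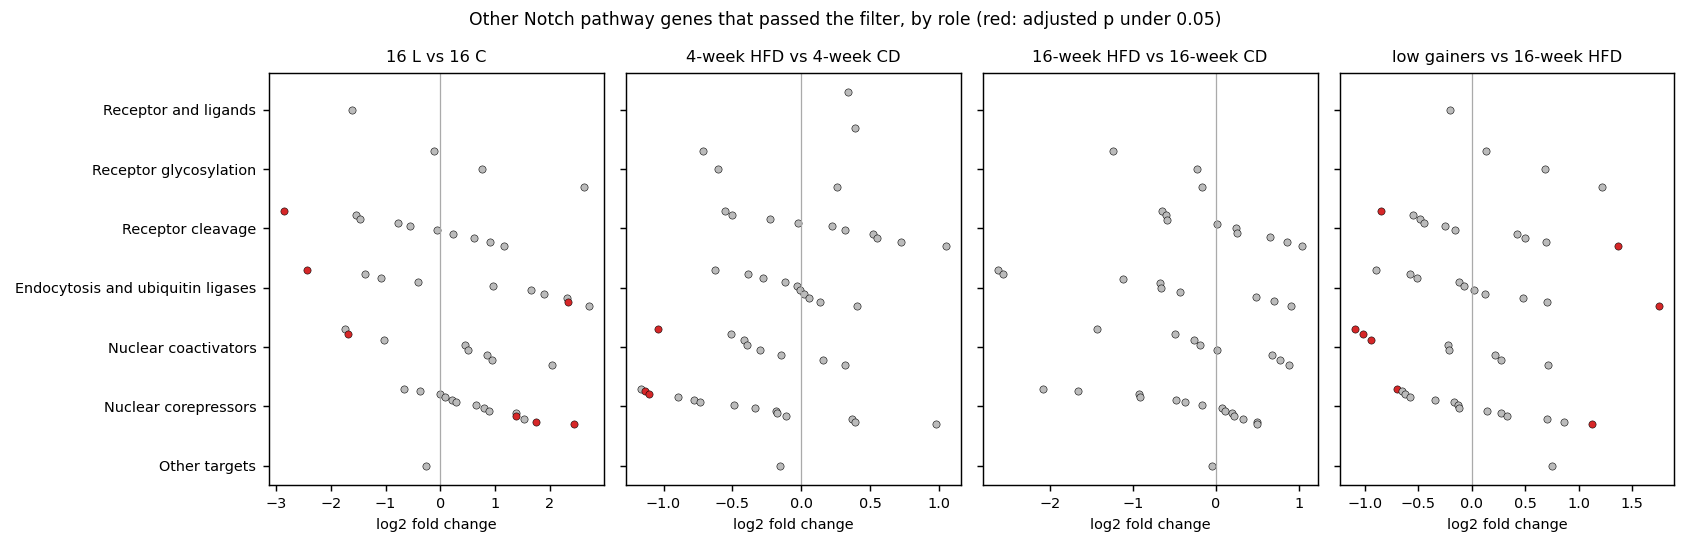
Log2 fold change (x axis) of the further pathway genes that passed the filter, by role (y axis), in 4 comparisons; each point is 1 gene and red points have an adjusted p under 0.05. Calls number 7 with leptin, 3 after 4 weeks of HFD, 0 after 16 weeks and 8 in the low gainers.

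At 16 weeks edgeR called none of 44 (14 at an unadjusted p under 0.05, as were 25.3% of all genes). DESeq2 called 5 and limma-voom 0, beside 8.58% and 0.046% of all genes. Leaving out 16-week CD replicate 9 or 13 gave 13 and 4 calls, beside 20.5% and 4.29% of all genes. Low gainers against 16-week HFD gave 3 higher and 5 lower of 47, 17.0% beside 20.7% of all genes. Ncstn, a γ-secretase subunit, had 112.2 ± 46.2 RPM in 16-week HFD (SD, n = 7) and 319.9 ± 57.8 in the low gainers (n = 3), a log2 fold change of 1.37 (SE 0.26, edgeR adjusted p = 0.00288). Dtx3 went from 1.84 ± 1.26 to 7.35 ± 0.527 RPM (1.75, SE 0.46, adjusted p = 0.0147) and Ctbp1 from 28.6 ± 8.35 to 69.3 ± 9.85 (1.12, SE 0.21, adjusted p = 0.00259). Lower were Crebbp, from 43.8 ± 7.44 to 23.1 ± 2.66 RPM (-1.10, SE 0.21, adjusted p = 0.00291), and Snw1, a coactivator subunit, from 425.0 ± 86.8 to 237.1 ± 20.4 (-1.02, SE 0.23, adjusted p = 0.00600). Without low gainer replicate 21 or 23, 4 and 5 genes were called, beside 9.94% and 5.19% of all genes.

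Against 16-week CD none of 47 was called (6 at an unadjusted p under 0.05, as were 11.2% of all genes). DESeq2 called 1 and limma-voom 0, where each called 1.84% of all genes. The diet effect differed between times for 3 of 48, 6.25% beside 3.66% of all genes. It was more positive at 16 weeks for Crebbp (1.13, SE 0.31, edgeR adjusted p = 0.0404) and Ncor1 (1.32, SE 0.36, adjusted p = 0.0404) and more negative for Hdac2 (-1.36, SE 0.35, adjusted p = 0.0336). Fits that left out 1 library gave 0 to 17 such genes, with 17 without 16-week CD replicate 9, where 13.8% of all genes were called.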

How the data were processed

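Per the labels, reads were trimmed with Trim Galore 0.4.2 and aligned with HISAT2 2.0.5 to GRCm38. The authors deposited 1 table of whole-number read counts per gene and library, not normalized; the counting program and its strand setting are not given in the sources used here. Groups came from the sample labels. Libraries were made by Smart-seq2 without molecular identifiers, so limits for low counts (3 reads for a count of 0, at 95% confidence) cover counting error only. Replicates were checked in 72 pairs, of which 0 were identical.

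Each comparison was fitted to the libraries of its own groups with edgeR 4.0.16 in R 4.3.3 (TMM, filterByExpr, robust quasi-likelihood test, two-sided), with Benjamini-Hochberg adjustment over all genes tested and calls at 0.05. Members that failed the filter were compared in the DIO model by exact permutation of mean log2(RPM + 1). Intervals use the t distribution of the fit. The fits were tested on simulated data. Alternatives were DESeq2 1.42.0, limma-voom (limma 3.58.1) with sample quality weights, RLE scaling, no filter, a minimum of 10 counts per library, one fit to all 34 libraries, a pseudocount of 0.1, leaving out each library, and, both chosen after seeing the data, scaling by total counts and a replicate block for the difference between times. Exon lengths and overlapping genes are from GENCODE M21. Named are all members, up to 5 called pathway genes per comparison with the largest change, and the 5 genes most like Hey1, except that 1 result is not reported here; single marker genes and the split by Notch2 were added after their values were seen. Members and lists were chosen with earlier results of these data known.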

Additional observations from a re-analysis of the deposited data

Results flagged for a closer look

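In groups of 4 to 10 libraries, a library far from the rest was found in 8 of 49 sets of a member and a group. Of the 8, 5 lay at the high end. The rule always flags a set with a single nonzero value, as in 4 of these 5, so the number is not set against chance. In 16 L, replicate 18 was high for Jag1 (635.8 RPM) and low for Heyl (5.22 RPM), and replicate 19 was low for Notch1 (0.965 RPM). Replicate 6 of 16-week HFD was low for Notch2 (214.5 RPM). The remaining 4 rest on a single Dll1 read each, at 0.326 RPM in 16-week CD replicate 1, 0.183 in 16-week HFD replicate 6, 0.223 in 4-week CD replicate 11 and 0.566 in 16 L replicate 20.

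The HFD effect on Heyl differed between 16 and 4 weeks by -2.02 on the log2 scale (edgeR interaction, adjusted p = 0.0356), with the limits given in the report.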

How the results depend on the processing

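No paired analysis was possible because the groups compared share fewer than 2 replicate numbers, except for the difference between times, where CD libraries share 3 numbers and HFD libraries 1. Their deviations from the group means did not go together (correlations -0.270, -0.0271 and -0.221 for CD and 0.116 for HFD), so the numbers were not taken as pairs. A replicate block, added after seeing the data and leaving 4 residual degrees of freedom, called 0 members, 0 pathway genes and 10 genes in all, with log2 differences of -2.59 for Heyl (adjusted p = 0.159), -2.495 for Notch1 and -2.002 for Hey2. The cause of a change was not tested. For leptin, DESeq2 called 17.7% of all genes, limma-voom 63.8%, no filter 2.66%, all 34 libraries 33.1% and total-count scaling 34.4%. Beside these, members called numbered 4 with DESeq2, 6 with limma-voom and 1 with no filter. They numbered 6 with all 34 libraries in one fit, 4 with total-count scaling, and 0 to 5 with 1 library left out. At 10 counts or more in every library, 0 of 4 members tested were called, and Hey1 and Rbpj were not tested. Further pathway genes numbered 15, 37, 3, 22 and 20 with DESeq2, limma-voom, no filter, all 34 libraries and total-count scaling, and 0 to 25 with 1 left out. At 4 weeks limma-voom called 1 member, and pathway genes numbered 8, 19 and 0 with DESeq2, limma-voom and all 34 libraries, and 0 to 8 with 1 left out. DESeq2, limma-voom and all 34 libraries called 9.43%, 34.6% and 0.521% of all genes there. At 16 weeks DESeq2, all 34 libraries and total-count scaling called 1 member and 5, 8 and 9 pathway genes, beside 8.58%, 9.5% and 15.2% of all genes. With 1 left out, 0 to 2 members and 0 to 13 pathway genes were called. Low gainers against HFD gave 0 members with all 34 libraries. At 10 counts 0 of 4 members tested were called, and Heyl was not tested. Pathway genes numbered 13 of 47 with limma-voom and 2 of 50 with all 34 libraries, beside 29.3% and 3.68% of all genes. With 1 left out, 0 to 1 members and 4 to 11 pathway genes were called. Against CD, DESeq2 called 1 pathway gene. The diet effect between times gave 0 of 4 members at 10 counts, where Heyl was not tested, 0 with all 34 libraries, and 0 to 1 with 1 left out. Its pathway genes numbered 5 (DESeq2, RLE and 10 counts), 13 (limma-voom) and 1 (no filter, all 34 libraries), and 0 to 17 with 1 left out. Shares of all genes called with these alternatives were 8.5%, 4.94%, 6.08%, 18.7%, 1.55% and 1.19%, in the order named.

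The log2 fold changes that changed sign were those of Notch2 at 4 weeks (limma-voom -0.215, total counts -0.055, 1 left out -0.242 to 0.245), and at 16 weeks of Rbpj (limma-voom 0.190, 1 left out -0.192 to 0.136) and Jag1 (total counts -0.143, 1 left out -0.154 to 0.852). In the low gainers against HFD they were Rbpj (10 counts 0.019, total counts 0.103, 1 left out -0.126 to 0.052) and Hes1 (-0.132 to 0.411), and against CD Rbpj (limma-voom 0.129, 1 left out -0.216 to 0.061), Notch1 (total counts -0.333, 1 left out -0.175 to 0.332) and Jag1 (-0.755 to 0.368). Between times they were Notch1 (total counts -0.043) and Hey2 (DESeq2 -0.028, RLE -0.027, no filter -0.082, all 34 libraries -0.078, total counts -0.348, 1 left out -0.246 to 0.323). With leptin Hes1 changed sign without replicate 18 (-0.07). Of the differences in log2(RPM + 1), those of Dll1 at 16 weeks (-0.068 to 0.035), Hey1 against CD (-0.481 to 0.375) and Notch3 in the low gainers against CD (-0.152 to 0.271) and HFD (-0.417 to 0.005) did with 1 left out.

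Calls among all genes moved as well. DESeq2 gave 2311, 1281, 1099, 224 and 1141 for leptin, 4 weeks, 16 weeks, low gainers against CD and the difference between times, and limma-voom 7474, 4052, 5, 214 and 2289. With all 34 libraries in one fit the 6 comparisons gave 4384, 69, 1258, 487, 7 and 157, in the order of the report. Without the filter leptin gave 504 and 16 weeks 13, and at 10 counts 16 weeks and low gainers against CD gave 0. Total-count scaling changed the split into higher and lower genes, from 476 and 528 to 3652 and 383 for leptin, from 140 and 359 to 91 and 571 at 4 weeks, from 1 and 2 to 55 and 1591 at 16 weeks, from 1212 and 1118 to 1585 and 598 in the low gainers against HFD, and from 213 and 235 to 187 and 686 between times, and gave 0 genes in the low gainers against CD. It moved the median of all genes to 1.08, -0.13, -0.40, 0.14, -0.28 and -0.39. Leaving out 1 library gave 30 to 4635 genes for leptin, 8 to 1700 at 4 weeks, 1 to 2222 at 16 weeks, 596 to 2732 in the low gainers against HFD and 69 to 1685 between times. Depth limits Dll1, Notch3 and Hey1, where 1 read is a large step.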
